A study of Mus musculus with 13 samples.

Results

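Protein-coding genes that were almost unread in control retinal cells and were read in every library given Ikzf1 numbered 73, of 21833 protein-coding genes other than Ikzf1 itself. A gene entered the group when its mean over the 4 control libraries was under 0.5 CPM and it reached at least 1 CPM in each of the 4 Ikzf1 libraries. CPM, a library-scaled count, is here the estimated reads of a gene per 1e6 reads of its library, with the Ikzf1 reads left out. The same measurement therefore both chose the genes and gives their levels, so the levels below are a description and carry no test. Of the 21833 genes, 7269 were under 0.5 CPM in the controls (near-silent), and the 73 are 1.00% of those.

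The cells were dissociated from retinas of postnatal day 0 CD1 mice, transfected, kept in culture for 9 h and sorted for GFP, a fluorescent marker protein. Control cells received GFP alone and the other group received Ikzf1 joined to GFP by an internal ribosome entry site, written Ikzf1-IRES-GFP. Each of the 4 control libraries was made from 400000 cells and each of the 4 Ikzf1 libraries from 300000 cells, and the labels call the replicates biological. The series also holds CUT&RUN libraries, which map protein binding to DNA and were not used here. Total RNA was sequenced after removal of ribosomal RNA, and the sorted cells are labelled retinal progenitor cells. Expression was forced from a transfected plasmid, whose promoter in these RNA libraries is not given in the sources used here.

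Ikzf1 encodes Ikaros, the founding member of a family of zinc finger transcription factors that bind DNA at sites with a GGGAA core. It is best known from lymphocyte development, where it both activates and represses genes and works with chromatin remodelling complexes. In the mouse retina it is known as a factor of early progenitors, and the cells used here come from a later stage. The question put by the design is which genes respond when the factor is returned to late progenitors.

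The libraries held 21.4 to 27.1 M estimated read pairs in the controls and 24.5 to 30.5 M in the Ikzf1 group. Ikzf1 itself took 0.00723 to 0.00909% of the control reads and 15.9 to 17.2% of the reads in the Ikzf1 libraries. Because of that share the totals were taken without it, and 1 CPM then stood for 21.4 to 27.1 reads in a control and 20.3 to 25.3 reads in an Ikzf1 library. All 14 genes of a retinal progenitor marker list, among them Sox2 and Pax6, were read in both groups, with a summed level of 3017 to 3153 CPM in the controls and 2728 to 2789 CPM with Ikzf1. In bulk samples such as these, a different number of cells of a type and a different amount of RNA per cell cannot be told apart.

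Promoter sequence was examined because the factor is known for its DNA core and because these genes share a near-silent start. RefSeq promoters (GRCm38.p6) were matched by symbol for 51 of the 73 genes, and the 250 bases before 1 annotated start per gene were read. That start was the first listed and was not matched to the transcript that holds the reads. By the deposited positions the windows of Meioc and Tbx1 lie inside the gene. Of these promoters 6 are printed here. Pgr15l and Slco4c1 have some of the largest ratios between the groups, and Hpgd and Aspn some of the highest levels. Sct and Tal1 come from the hormone and blood lists described further on. The 6 do not span the whole range of sequences among the 51. They lie at chrX:97072346-97072595 (plus strand), chr1:96872172-96872421 (minus), chr8:56294302-56294551 (plus), chr13:49544193-49544442 (plus), chr7:141279134-141279383 (minus) and chr4:115056176-115056425 (plus). Each is written 5′ to 3′ on the strand of its gene, and capitals mark GGGAA or, on the other strand, TTCCC.
Pgr15l: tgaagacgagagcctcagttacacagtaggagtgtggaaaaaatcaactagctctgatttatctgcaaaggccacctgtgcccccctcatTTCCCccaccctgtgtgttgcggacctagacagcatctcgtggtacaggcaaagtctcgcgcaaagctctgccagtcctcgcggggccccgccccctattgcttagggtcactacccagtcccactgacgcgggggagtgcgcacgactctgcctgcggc
Slco4c1: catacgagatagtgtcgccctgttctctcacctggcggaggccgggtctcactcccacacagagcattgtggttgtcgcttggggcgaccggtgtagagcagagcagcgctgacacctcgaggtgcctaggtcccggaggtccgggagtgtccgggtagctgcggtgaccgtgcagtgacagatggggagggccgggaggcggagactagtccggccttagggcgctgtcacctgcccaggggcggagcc
Hpgd: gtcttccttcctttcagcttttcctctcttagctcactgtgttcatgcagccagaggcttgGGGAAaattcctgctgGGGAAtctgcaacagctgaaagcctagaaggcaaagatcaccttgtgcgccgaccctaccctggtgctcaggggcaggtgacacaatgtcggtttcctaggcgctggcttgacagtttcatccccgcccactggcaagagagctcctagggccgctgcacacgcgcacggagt
Aspn: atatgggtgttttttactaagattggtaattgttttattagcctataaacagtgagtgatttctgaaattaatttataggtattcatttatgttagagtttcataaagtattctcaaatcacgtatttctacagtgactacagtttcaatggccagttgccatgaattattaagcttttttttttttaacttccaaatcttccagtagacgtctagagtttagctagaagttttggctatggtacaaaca
Sct: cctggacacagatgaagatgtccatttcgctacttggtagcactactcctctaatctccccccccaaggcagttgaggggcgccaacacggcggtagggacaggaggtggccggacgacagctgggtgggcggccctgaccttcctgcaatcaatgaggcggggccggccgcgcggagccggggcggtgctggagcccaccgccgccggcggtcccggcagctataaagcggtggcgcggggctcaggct
Tal1: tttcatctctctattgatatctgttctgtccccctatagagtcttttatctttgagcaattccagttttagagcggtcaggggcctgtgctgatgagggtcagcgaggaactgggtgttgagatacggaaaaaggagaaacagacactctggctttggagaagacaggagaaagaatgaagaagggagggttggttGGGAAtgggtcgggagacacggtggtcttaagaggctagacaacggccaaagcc

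In these 6 sequences GGGAA on either strand occurs 2 times before Hpgd and 1 time each before Pgr15l and Tal1. It does not occur in the windows of Slco4c1, Aspn and Sct. Over the 51 promoters it was found in 29 (56.9%), beside 56.3% of 17492 protein-coding promoters of the same length, 52.7% of 5182 promoters of the other near-silent genes and 58.5% of 11324 promoters of genes at 0.5 CPM or more in the controls. The longer TGGGAA, which contains the first motif, was in 21.6% of the members' promoters and 20.8% of all, and TATAAA, searched on both strands like the others, in 15.7% and 12.4%. These shares, counted on both strands, are close to those of all promoters. On the gene's strand alone GGGAA was in 41.2% of the members' promoters, 33.1% of all and 31.7% of the other near-silent genes. These differences were not tested, and a match of so few letters says nothing on binding.

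CG dinucleotides set the members further from the other near-silent genes than the motifs did. Of the printed sequences, Sct holds 22, Slco4c1 19, Pgr15l 13, Hpgd 9, Tal1 6 and Aspn 2. Across the 51 promoters the median was 9, beside 2 in the other near-silent genes, 15 in the genes at 0.5 CPM or more and 10 over all. At least 10 CG were counted in 24 of 51 (47.1%), against 10.8%, 71.4% and 50.4% in those 3 sets. The members thus lie between the near-silent and the read genes in CG content, and they include promoters at both ends, from Olfr772 with 0 to Fgf18 with 37. The other near-silent genes, here and in the motif shares, also hold genes with a mean normalised count under 1 in the authors' deposited table. Of the 7269 near-silent genes only 2866 were above that and joined, so the comparison mixes membership with being read at all. The difference was not tested.

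**Figure D1:**
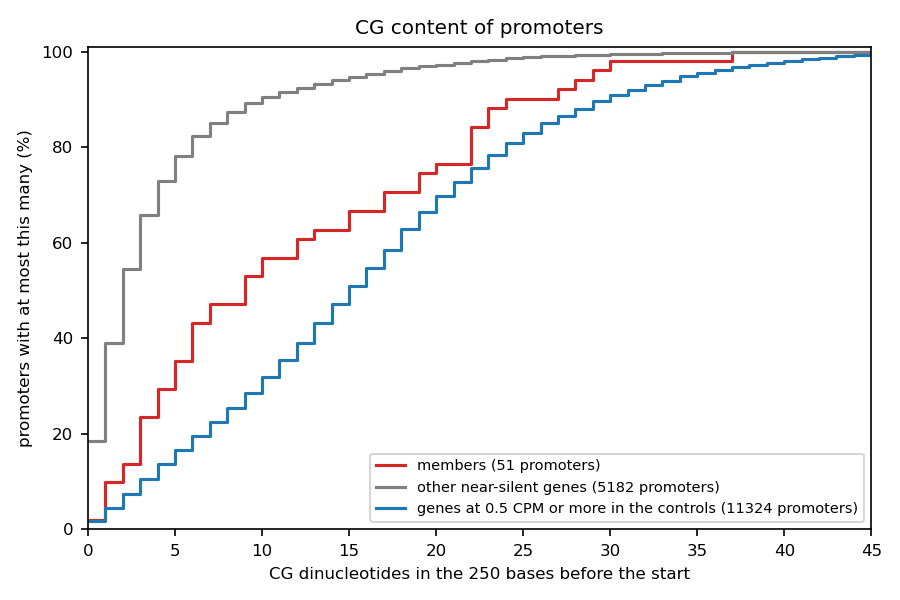
Cumulative share of promoters (vertical axis, percent) with at most a given number of CG dinucleotides in the 250 bases before the start (horizontal axis). The line of the 51 members runs between that of 5182 other near-silent genes, whose median is 2, and that of 11324 genes at 0.5 CPM or more in the controls, whose median is 15.

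Over the 73 genes the summed level was 20.4 ± 2.37 CPM in the controls (range 18.1 to 22.5) and 175 ± 9.14 CPM in the Ikzf1 libraries (range 167 to 187, SD, n = 4 each). In reads this is 439 to 574 per control library and 3627 to 4435 per Ikzf1 library. The median gene stood at 0.276 CPM in the controls and 1.96 CPM with Ikzf1, and the median ratio of the group means was 8.22. Means in the Ikzf1 group ran from 1.13 CPM for Trpv3 to 6.87 CPM for Spink5, with 33 genes at 2 CPM or more and 18 at 3 CPM or more. A ratio of 10 or more was reached by 30 genes. These are low levels: the group became readable, and none of its genes became abundant.

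In all 73 genes every Ikzf1 library lay above every control, which is what the rule nearly forces, and 31.1% of 15652 tested genes of all kinds show the same separation. All 73 also passed the edgeR test as higher, where 59.1% of tested genes passed in either direction and 29.3% as higher, and nothing is read from these counts. The median edgeR log2 fold change of the 73 was 2.96, beside 0.00 over all tested genes. The highest single control value was 0.774 CPM, for Acaa1b in control 2, and no member reached 1 CPM in any control. Between Ikzf1 libraries the coefficient of variation of a gene ran from 2.86 to 39.1%, with a median of 18.8%.

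The crossing in the other direction was rarer in count. Of 7200 protein-coding genes under 0.5 CPM in the Ikzf1 libraries, 28 (0.389%) were at 1 CPM or more in every control. Most near-silent genes stayed near-silent: among the 2866 whose transcripts could be joined to a gene, those outside the group had a median of 0.171 CPM with Ikzf1, and 326 of them had a mean of 0.5 CPM or more. The edge of the group is therefore not a gap. Fsip1 (0.490 CPM) and Zfp853 (0.488 CPM) lie just inside the control limit, with Fbxl8 (0.502 CPM) and Cd36 (0.505 CPM) just outside. On the Ikzf1 side the lowest libraries of Acaa1b (1.01 CPM) and A530084C06Rik (1.02 CPM) lie just inside, and those of Hhex (0.991 CPM) and Barx2 (0.989 CPM) just outside.

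**Figure D2:**
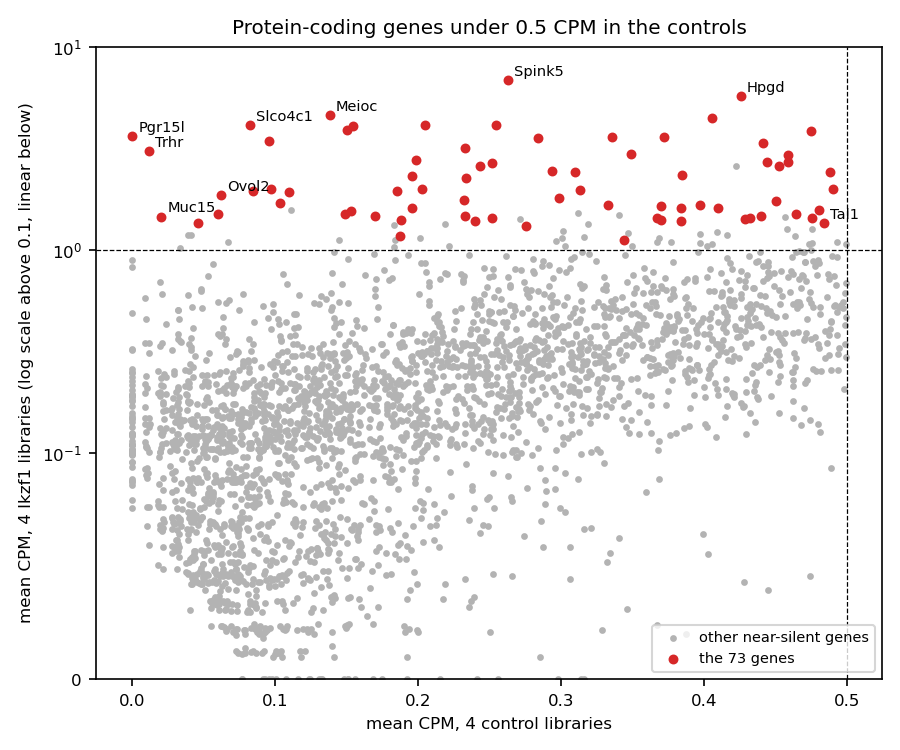
Mean CPM in the 4 Ikzf1 libraries (vertical axis, log scale above 0.1 and linear below) against mean CPM in the 4 controls (horizontal axis) for the 2866 near-silent protein-coding genes with joined transcripts. The 73 members (red) run from 1.13 CPM (Trpv3) to 6.87 CPM (Spink5), and the dashed lines are the limits of 0.5 and 1 CPM, the latter applied to each library and drawn here on means.

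The genes were sorted by role after their values were known. Transcription regulators numbered 15, enzymes 9, epithelial barrier and membrane proteins 8, seven-pass membrane receptors 7, germ cell and axoneme genes 6, secreted signals 5, transporters and channels 4, and 19 were left as other. The summed level of the regulators was 3.74 to 4.94 CPM in the controls and 31.6 to 38.5 CPM with Ikzf1, and that of the receptors was 1.11 to 1.73 CPM and 16.2 to 19.6 CPM. The members lie on 18 autosomes and X, with 9 on chromosome 15, 7 on chromosome 13 and 6 each on chromosomes 2 and 11.

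**Figure D3:**
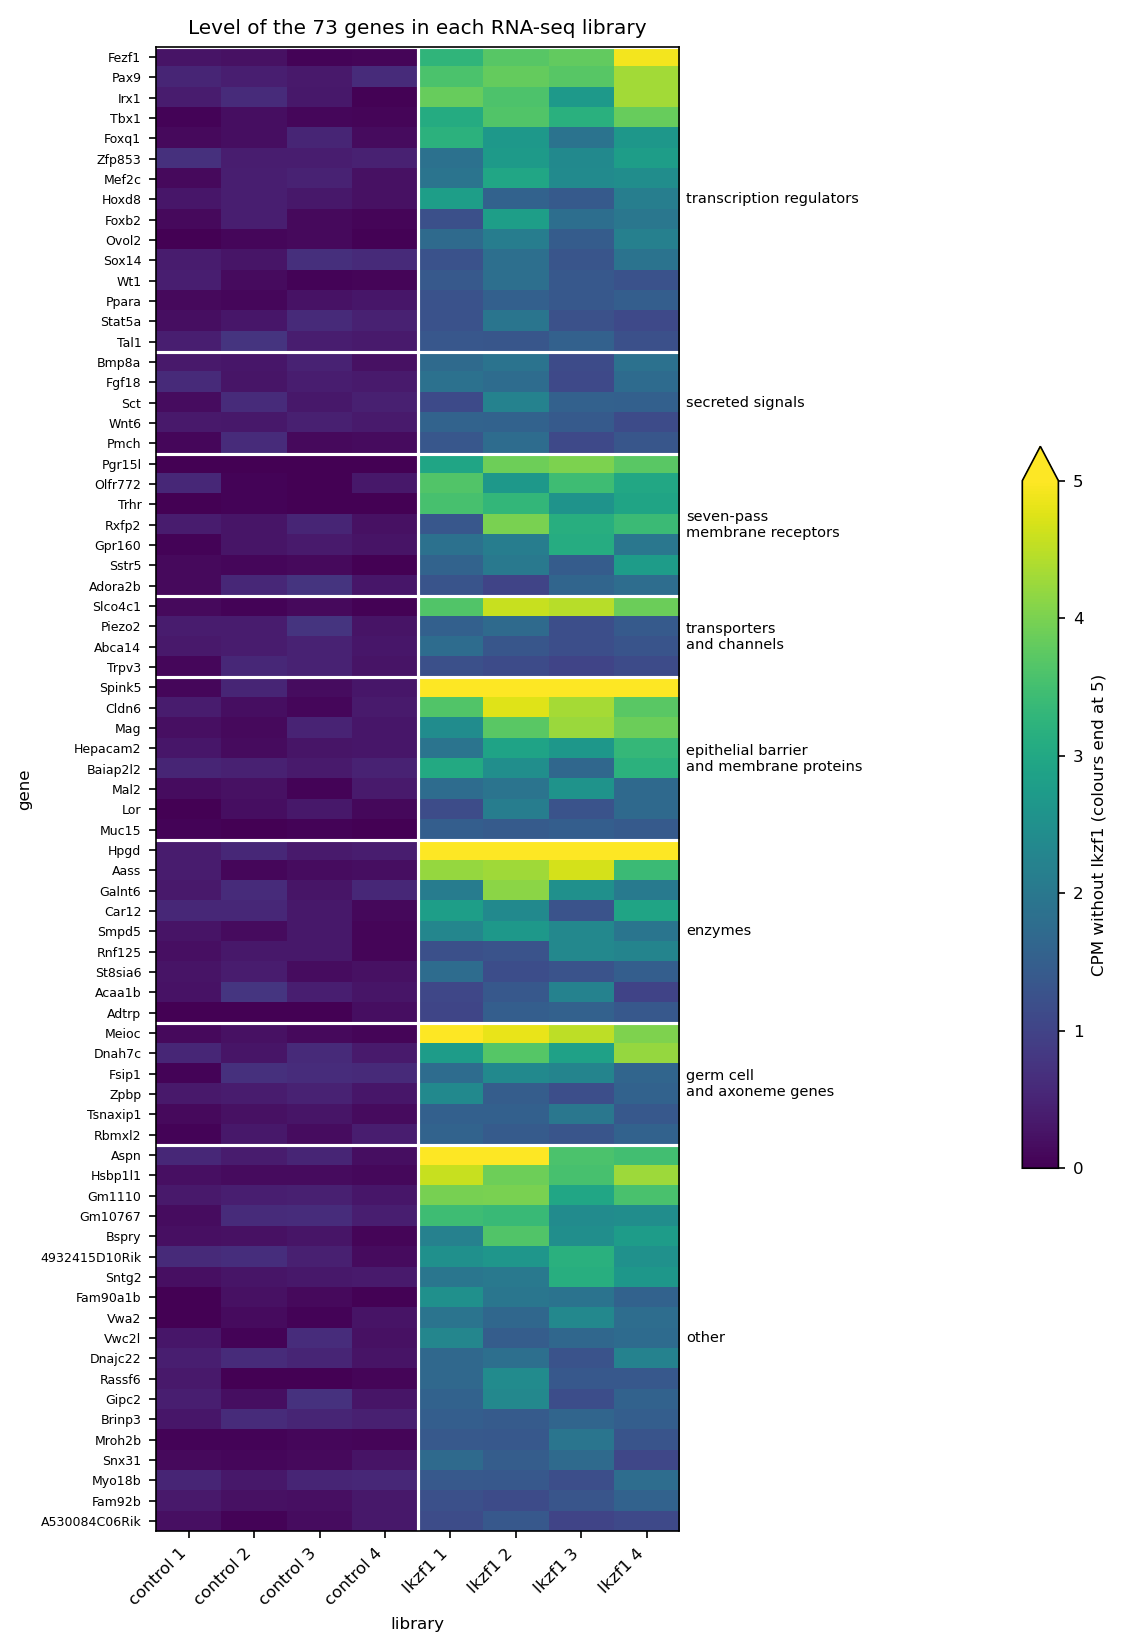
CPM of each of the 73 genes (rows, grouped by role and sorted by Ikzf1 mean) in each of the 8 libraries (columns), on a colour scale that ends at 5 CPM. Every control cell is under 0.774 CPM or at it, and every Ikzf1 cell is at 1.01 CPM or more, with Spink5 and Hpgd past the end of the scale in all 4 Ikzf1 libraries.

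Among the transcription regulators Fezf1, Pax9, Irx1 and Tbx1, all genes of embryonic patterning, had the highest CPM. Fezf1 (chromosome 6, 23245044 to 23248362, minus strand), a zinc finger repressor of forebrain and olfactory development, was at 0.256, 0.234, 0.0392 and 0.0737 CPM in controls 1 to 4 and at 3.27, 3.70, 3.80 and 4.90 CPM in Ikzf1 libraries 1 to 4. Its means differ 26.0-fold, with Ikzf1 library 4 the highest and controls 3 and 4 at 1 or 2 reads. Tbx1 (chromosome 16, 18580979 to 18590671, minus), a T-box factor of the pharyngeal arches, was at 0.0426, 0.187, 0.0785 and 0.0737 CPM in the controls and 3.08, 3.65, 3.18 and 3.84 CPM with Ikzf1. The ratio was 36.0, the groups are far apart and the Ikzf1 libraries lie close together (3.44 ± 0.363 CPM, SD, n = 4).

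Pax9, a paired box factor of the pharyngeal pouches and teeth, started from a higher floor. It was at 0.512, 0.418, 0.351 and 0.617 CPM in the controls and at 3.58, 3.82, 3.69 and 4.30 CPM with Ikzf1, an 8.11-fold difference with little spread in either group. Irx1, an Iroquois homeobox gene, was at 0.383, 0.607, 0.314 and 0.0369 CPM in the controls and 3.83, 3.60, 2.70 and 4.31 CPM with Ikzf1. Its controls vary more than those of Pax9, since control 4 is low, but no library of one group comes near the other.

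Ovol2, a zinc finger factor known for holding cells in an epithelial state, was lower in level but among the widest in ratio. It stood at 0, 0.0934, 0.118 and 0.0369 CPM in the controls (6 reads in all) and at 1.73, 2.12, 1.46 and 2.17 CPM with Ikzf1, a ratio of 30.2 that rests on those 6 reads. Tal1 (chromosome 4, 115056426 to 115071755, plus), a helix-loop-helix factor needed for blood formation, had the smallest ratio of the group, 2.82. Its controls were at 0.426, 0.748, 0.392 and 0.369 CPM and its Ikzf1 libraries at 1.35, 1.33, 1.55 and 1.23 CPM, so that the gap between the groups is small. Zfp853, a zinc finger gene at the control limit, went from 0.488 ± 0.144 to 2.44 ± 0.420 CPM (SD, n = 4 each).

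The other 8 regulators had Ikzf1 means of 1.39 to 2.61 CPM. They are the forkhead genes Foxq1 and Foxb2, the muscle and neuron factor Mef2c, the trunk homeobox gene Hoxd8, the HMG box gene Sox14, the kidney and gonad factor Wt1, the fatty acid sensor Ppara and the cytokine signalling factor Stat5a. Of these Foxq1 was the highest, at 1.90 to 3.22 CPM with Ikzf1 and 0.128 to 0.510 CPM in the controls. Stat5a overlaps Stat3 on the other strand, which was at 153 CPM in the controls, and the split of reads in the overlap is uncertain.

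None of the 5 secreted signals passed a mean of 1.66 CPM. Sct, which encodes the gut hormone secretin, was at 0.170, 0.607, 0.314 and 0.442 CPM in the controls and 1.12, 2.22, 1.55 and 1.54 CPM with Ikzf1. The groups do not overlap, and the highest control and the lowest Ikzf1 library are less than 1 CPM apart. Fgf18, Wnt6 and Bmp8a, ligands of the FGF, Wnt and BMP families, had Ikzf1 means of 1.62 ± 0.349, 1.43 ± 0.204 and 1.66 ± 0.351 CPM (SD, n = 4), and control means of 0.409 ± 0.134, 0.367 ± 0.0464 and 0.333 ± 0.105 CPM. Pmch, the precursor of melanin-concentrating hormone, was at 1.10 to 1.77 CPM with Ikzf1, and control 2 (0.607 CPM) stood above the other controls (0.0854 to 0.147 CPM). It overlaps Parpbp on the other strand.

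The receptors include Pgr15l and Trhr, the members with the fewest control reads. Pgr15l (chromosome X, 97072596 to 97082104, plus), named as a relative of a seven-pass receptor, had 0 reads in all 4 controls and 327 in the Ikzf1 libraries, at 2.94, 3.89, 4.02 and 3.72 CPM. By a 95% bound for counting error only, a count of 0 allows up to 3 reads over the 4 controls, or 0.0308 CPM. Set against the pooled Ikzf1 reads, whose own error is left out, this bound gives a ratio of at least 119. Trhr (chromosome 15, 44196135 to 44235912, plus), the receptor for thyrotropin-releasing hormone, had 1 read in control 2, none in the others and 275 with Ikzf1, at 3.55, 3.30, 2.56 and 2.93 CPM. The ratio of the pooled reads, scaled to the library totals, was 299, with an exact 95% interval of 53.2 to 11859. That interval covers counting error only, since sequenced copies of a fragment are not independent molecules. The rule chose both genes on these same reads, so the bound and the interval do not allow for that choice and carry no test.

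Other receptors were less extreme. Olfr772, an olfactory receptor gene, was at 0.554, 0.0467, 0 and 0.332 CPM in the controls and 3.64, 2.66, 3.45 and 3.01 CPM with Ikzf1, with controls that range from no read to 13. Rxfp2, a receptor of the relaxin family, was at 0.383, 0.280, 0.510 and 0.221 CPM in the controls and 1.35, 3.99, 3.14 and 3.40 CPM with Ikzf1. Library 1 of the Ikzf1 group was the low one for Rxfp2, and the spread (2.97 ± 1.14 CPM, SD, n = 4) was among the widest. Gpr160, the somatostatin receptor gene Sstr5 and the adenosine receptor gene Adora2b had Ikzf1 means of 2.26, 1.96 and 1.44 CPM.

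Slco4c1 (chromosome 1, 96816270 to 96872171, minus), an organic anion transporter known from the kidney, was at 0.128, 0.0467, 0.118 and 0.0369 CPM in the controls and 3.64, 4.58, 4.46 and 3.88 CPM with Ikzf1. The controls together held 8 reads and the ratio was 50.3, the widest among members with more than 3 control reads. The channel genes Piezo2 and Trpv3, which sense mechanical force and warmth, and the transporter gene Abca14 had Ikzf1 means of 1.47, 1.13 and 1.40 CPM and ratios of 3.34, 3.28 and 3.79. Slco4c1 thus stands well above the rest of its role.

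Genes of epithelial barriers include the highest member in CPM. Spink5 (chromosome 18, 43963235 to 44022501, plus), which encodes a serine protease inhibitor of the skin barrier, was at 0.0852, 0.514, 0.157 and 0.295 CPM in the controls and 6.58, 8.77, 6.50 and 5.62 CPM with Ikzf1. The ratio was 26.1, Ikzf1 library 2 was the highest and no control exceeded 0.514 CPM. Cldn6 (chromosome 17, 23679249 to 23682446, plus), a tight junction claudin of embryonic epithelia, was at 0.383, 0.187, 0.0785 and 0.369 CPM in the controls and 3.64, 4.76, 4.33 and 3.72 CPM with Ikzf1. Its ratio was 16.2, and the groups are far apart.

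Mag, the myelin-associated glycoprotein of glia, was at 0.212, 0.123, 0.502 and 0.298 CPM in the controls and 2.43, 3.73, 4.24 and 3.88 CPM with Ikzf1. Library 1 was the low one in the Ikzf1 group. Muc15, a membrane mucin, had 2 reads in the 4 controls and 131 with Ikzf1, at 1.49, 1.43, 1.5 and 1.42 CPM, the most even Ikzf1 values of the 73. Its ratio of pooled reads was 71.3, with an exact 95% interval of 19.3 to 595 for counting error only. That interval too leaves out the choice of the gene on these same reads. Muc15 overlaps Ano3 on the other strand, which was at 17.0 CPM in the controls. Lor, which encodes loricrin of the cornified envelope, Mal2, Hepacam2 and Baiap2l2 had Ikzf1 means of 1.57, 1.99, 2.70 and 2.60 CPM.

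Hpgd (chromosome 8, 56294585 to 56321043, plus), the dehydrogenase that inactivates prostaglandins, led the enzymes. It was at 0.383, 0.561, 0.353 and 0.405 CPM in the controls and 6.44, 5.37, 5.04 and 6.09 CPM with Ikzf1, a ratio of 13.5 with even values in both groups. Aass (chromosome 6, 23072173 to 23132986, minus), the first enzyme of lysine breakdown, was at 0.383, 0.0934, 0.157 and 0.184 CPM in the controls and 4.20, 4.29, 4.68 and 3.40 CPM with Ikzf1. The next member on that chromosome is Fezf1, 112058 bases away with no protein-coding gene between them, and the ratios of both are above 20. Adtrp, a lipid hydrolase gene, had reads in control 4 alone (0.184 CPM) and was at 1.04, 1.49, 1.55 and 1.39 CPM with Ikzf1.

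The remaining enzymes had Ikzf1 means of 1.42 to 2.70 CPM. Galnt6, which starts mucin-type glycans, was uneven, at 2.10, 4.14, 2.52 and 2.06 CPM with Ikzf1. Car12 (a carbonic anhydrase), Rnf125 (a ubiquitin ligase), St8sia6 (a sialyltransferase) and Acaa1b (a peroxisomal thiolase) were at 2.34, 1.77, 1.44 and 1.42 CPM. Smpd5, a sphingomyelinase gene, was at 2.31 ± 0.296 CPM (SD, n = 4) and overlaps Oplah on the other strand. Oplah itself was lower with Ikzf1, by -1.36 on the log2 scale (edgeR adjusted p 2.94e-11), while Smpd5 was at 1.94 to 2.66 CPM with Ikzf1 and at most 0.314 CPM in a control.

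Meioc (chromosome 11, 102663716 to 102682237, plus), which holds germ cells in meiotic prophase, led the germ cell genes. It was at 0.128, 0.234, 0.118 and 0.0737 CPM in the controls and 5.14, 4.83, 4.51 and 4.03 CPM with Ikzf1, a ratio of 33.5. All Ikzf1 libraries were high and the controls held 13 reads in all. Dnah7c, an axonemal dynein heavy chain, was at 0.531, 0.279, 0.597 and 0.357 CPM in the controls and 2.77, 3.68, 2.85 and 4.21 CPM with Ikzf1. It has close copies in the genome, so its reads are uncertain, as are those of Olfr772, Acaa1b and Fam90a1b for the same reason.

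Fsip1, a sperm fibrous sheath gene, sat at the control limit: control 1 was at 0.0426 CPM while controls 2 to 4 were at 0.701, 0.628 and 0.590 CPM, and the Ikzf1 libraries were at 1.77, 2.37, 2.25 and 1.62 CPM. Without control 1 its control mean would pass 0.5 CPM. Zpbp, a sperm protein of zona binding, was at 1.66 ± 0.509 CPM with Ikzf1 and lies 222595 bases from Ikzf1 on chromosome 11. Tsnaxip1 and Rbmxl2, genes of the male germ line, were at 1.61 ± 0.262 and 1.48 ± 0.127 CPM (SD, n = 4 each).

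Of the 19 genes outside these roles Aspn was the highest. Aspn (chromosome 13, 49544443 to 49567565, plus), a leucine-rich proteoglycan of the extracellular matrix, was at 0.554, 0.374, 0.510 and 0.184 CPM in the controls and 5.32, 5.42, 3.58 and 3.48 CPM with Ikzf1. Libraries 1 and 2 of the Ikzf1 group were high and 3 and 4 low. Hsbp1l1, a relative of a heat shock factor binding protein, was at 0.213, 0.139, 0.156 and 0.111 CPM in the controls and 4.59, 3.89, 3.54 and 4.27 CPM with Ikzf1. Gm1110 and Gm10767, 2 predicted genes, had Ikzf1 means of 3.62 ± 0.482 and 2.92 ± 0.567 CPM (SD, n = 4 each), and Gm10767 overlaps the abundant Uqcrb (73.5 CPM in the controls). The remaining 15, among them Bspry, Sntg2, Vwa2, Rassf6 and Brinp3, had Ikzf1 means of 1.17 (A530084C06Rik) to 2.77 CPM (Bspry).

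**Figure D4:**
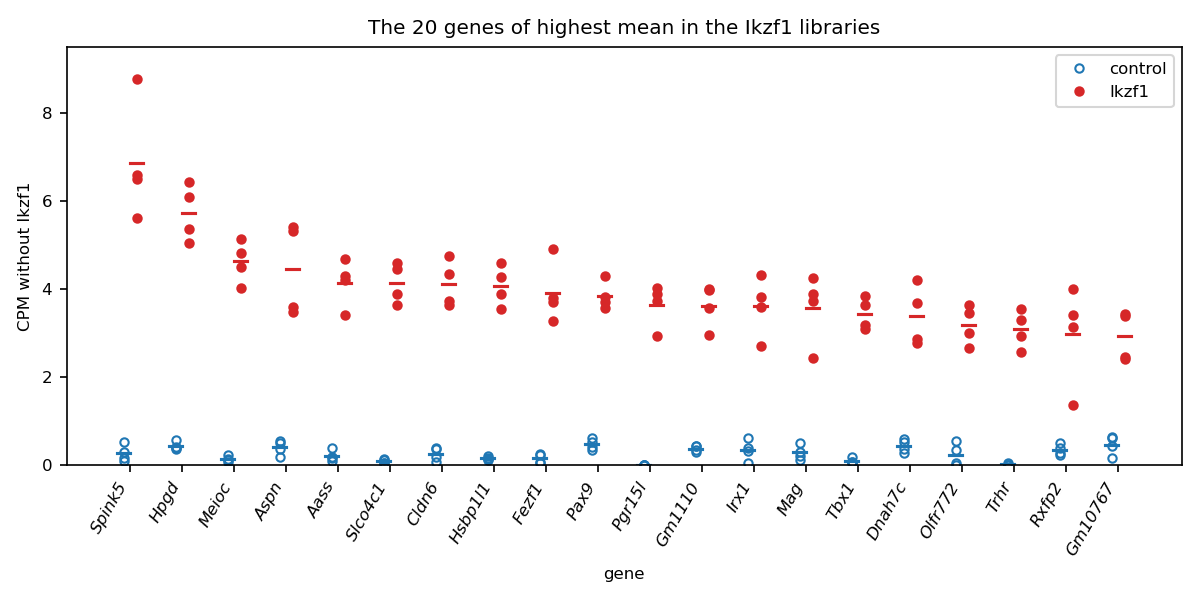
CPM in each control (open blue circles) and each Ikzf1 library (filled red circles) for the 20 members of highest Ikzf1 mean, with short lines at the group means. All red points lie above all blue points in each gene, and the lowest red point is Rxfp2 in library 1 (1.35 CPM).

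CPM counts a long transcript more often than a short one, so levels between genes are given per length, in TPM, a unit that divides reads by transcript length before scaling to the library, with Ikzf1 left out. On this scale the median member was at 1.90 TPM in the Ikzf1 libraries. Sct was highest (7.79 ± 2.26 TPM), then Hsbp1l1 (7.46 ± 1.02 TPM), Hpgd (6.70 ± 0.754 TPM) and Cldn6 (5.37 ± 0.748 TPM, SD, n = 4 each), and the first 3 differ by less than the spread of Sct. Spink5, first in CPM, was at 2.64 ± 0.498 TPM, with a leading transcript of 4630 effective bases. The lowest was 4932415D10Rik at 0.323 ± 0.0387 TPM.

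Transcript use within the genes was not part of the rule. The run of transcripts joined to a gene held 1 transcript for 18 members and several for 55. In 32 of the 73 a single transcript held 90% or more of the Ikzf1 reads, as in Meioc (98.7%) and Aass (100%). The 18 members with 1 transcript reach this by construction, and 14 of the 55 with several also did. Of the 55 genes, 33 had the same leading transcript in both groups and 22 another one, but with few control reads the leading transcript of a control is poorly set. In 2 genes the mean effective length of the reads' transcripts more than doubled.

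These were Mag, from 426 bases in the controls to 1997 with Ikzf1, and Mroh2b, from 966 (6 control reads) to 2476. In Mag a transcript of 208 effective bases held 50.8% of the 28 control reads, and one of 2279 bases held 52.4% of the Ikzf1 reads. Per length the difference of Mag was therefore smaller than in CPM: 1.34 TPM in the controls and 3.30 ± 1.04 TPM with Ikzf1 (SD, n = 4). For Mag the authors' deposited table gives 0.87 (standard error 0.34) on the log2 scale, where the edgeR value from CPM-scaled reads was 3.52. For Dnah7c it is 0.38 (0.36) in the authors' deposited table, the smallest of the 73, and 2.88 by edgeR. For Olfr772 the authors' deposited table gives 1.02 (0.36), and edgeR 3.68. The largest in the authors' deposited table is that of Pgr15l, 4.37 (0.34), and the sources used here do not state whether these values were shrunken.

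**Figure D5:**
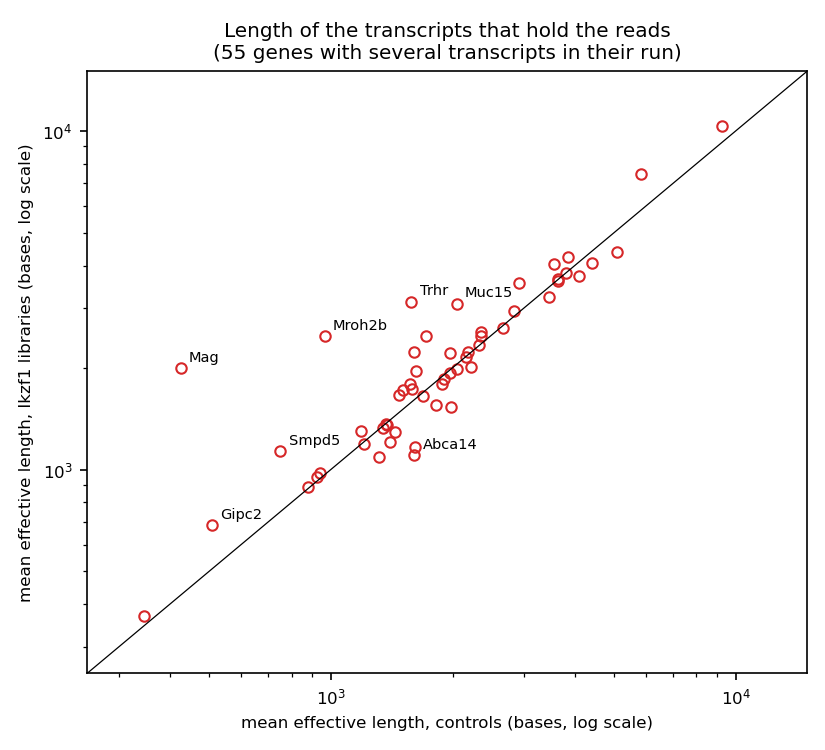
Mean effective length in bases of the transcripts that hold a gene's reads, in the Ikzf1 libraries (vertical axis) against the controls (horizontal axis), both on log scales, for the 55 members with several transcripts. Most points lie near the line of equality, and Mag (426 and 1997 bases) and Mroh2b (966 and 2476 bases) lie farthest above it.

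Neighbouring genes matter here because the library kit keeps strand but its use in counting is not given in the sources used here. Genes with a mean normalised count of 1 or more over the 8 libraries in the authors' deposited table were considered. Of the 73 members 14 overlap another such gene. In 10 the other gene has a higher level per length (TPM, Ikzf1 libraries): Smpd5, A530084C06Rik, Aspn, Fam92b, Pmch, Tsnaxip1, Stat5a, Gm10767, Zpbp and Muc15. Foxq1 and A530084C06Rik overlap each other on opposite strands, so the split between their 2.61 and 1.17 CPM is uncertain. Aspn overlaps Cenpp (4.34 CPM in the controls, 7.53 CPM with Ikzf1), and Fam92b overlaps Galnt2l (55.3 and 87.7 CPM). In these 10 the split of reads between the genes is uncertain.

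The nearest tested gene was read for each member, at a median distance of 9761 bases. Foxq1 and A530084C06Rik are each other's nearest gene, so 71 of the 73 have a nearest gene that the rule did not choose. Of these 71 nearest genes 29 passed the edgeR threshold as higher and 17 as lower, where 29.3% and 29.8% of all tested genes passed, and their median log2 fold change was 0.13. For 3 of the highest members, chosen after the values were seen, it was as follows. Near Hpgd it was Glra3 (1.60, edgeR adjusted p 4.97e-05), near Spink5 it was Jakmip2 (1.30, edgeR adjusted p 4.88e-16), and near Meioc it was Ccdc43 (-0.11, edgeR adjusted p 0.0953). The share of higher neighbours was not tested, and overlapping neighbours are among them.

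Lists of genes from the tissues in which members are usually found were read in the same fit, with the members themselves left out of the counts since the rule had fixed them as higher. The background for each count is 29.3% higher and 29.8% lower of all tested genes, with a median log2 fold change of 0.00. Of 24 germ line and meiosis genes 9 could be tested, Meioc among them, and of the other 8, 3 were higher and 2 lower with a median of -0.29. Ddx4, a germ cell RNA helicase, rose by 2.38 on the log2 scale (standard error 0.20, edgeR adjusted p 4.52e-11), from 0.909 ± 0.118 to 4.94 ± 0.506 CPM (SD, n = 4 each). Ythdc2, the partner of Meioc in germ cells, rose by 0.36 (edgeR adjusted p 1.08e-05) from an already high 66.7 ± 2.63 CPM. Sycp2, of the synaptonemal complex, fell by 1.66 (edgeR adjusted p 0.00018).

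The epithelial list had 19 of 28 genes tested, and without its members Spink5 and Cldn6 6 of 17 were higher and 4 lower, with a median of 0.38. Perp, a desmosome gene, rose by 2.40, Ripk4, a kinase of keratinocyte differentiation, by 3.65 and Epcam, an epithelial adhesion molecule, by 1.76 on the log2 scale (edgeR adjusted p 3.9e-20, 5.15e-18 and 9.89e-16). Chosen after their values were seen, the keratins Krt8 and Krt18 fell by 1.71 and 2.10 (edgeR adjusted p 1.07e-15 and 2.33e-15), and Cdh1, the epithelial cadherin, fell by 1.73 (edgeR adjusted p 0.00161). Of the other keratins tested, Krt5 rose, Krt19 fell, and Krt7 (0.38) and Krt15 (-0.72) did not pass (log2 scale).

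Markers of corneal and surface epithelium stand beside these values. Of 8 markers 4 were tested, 2 higher (Epcam and Krt5) and 1 lower (Cdh1), and the summed level was 10.3 to 12.5 CPM in the controls and 26.4 to 30.5 CPM with Ikzf1, most of it Epcam (7.37 and 26.0 CPM). Trp63, Krt12 and Elf3 had means of at most 0.252 CPM in either group. Krt14 had a mean of 0.115 normalised counts over the 8 libraries in the authors' deposited table. The part of such cells in the epithelial members' levels was not tested.

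The hormone list of gut and islet cells had 11 of 21 genes tested, and without its members Hpgd and Sct 1 of 9 was higher and 4 lower, with a median of -0.11. The 1 higher is Gcg, the glucagon gene, which rose by 3.92 (standard error 0.14, edgeR adjusted p 1.75e-19), while Pcsk2, a prohormone convertase, fell by 1.34 (edgeR adjusted p 7.5e-13) and the granule gene Chgb fell by 0.20 (edgeR adjusted p 0.000675). Of the lymphoid and blood list 12 of 26 genes were tested, and without the member Tal1 0 of 11 were higher and 3 lower. Lck, Rag1 and Tcf7 fell by 2.01, 1.19 and 0.71 (edgeR adjusted p 2.1e-07, 0.000114 and 2.05e-05), and the median without Tal1 was -0.53. The muscle list has no member: of 18 genes 9 were tested, 4 lower and 1 higher, with a median of -0.76. Ttn, the giant sarcomere protein, rose by 2.69 and the myogenic factor Myod1 fell by 3.38 (edgeR adjusted p 1.14e-10 and 6.76e-14), and Myh3 fell by 0.60 (edgeR adjusted p 2.01e-05).

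Marker lists of the sorted cells and of other cells the sort could hold were counted in the same way, against the same 29.3% and 29.8%. The retinal progenitor list had 3 of 14 higher and 8 lower. Microglia markers (4 of 11 tested, 0 higher, 1 lower) summed to 11.7 to 12.7 CPM in the controls and 8.36 to 10.7 CPM with Ikzf1. Endothelial markers (6 of 9 tested, 0 higher, 3 lower) summed to 439 to 509 and 236 to 275 CPM. Nearly all of that sum was Kdr (468 and 240 CPM). Vwf and Tek were also lower, and Pecam1 (3.26 and 3.23 CPM), Esam and Cldn5 did not pass. Pericyte and fibroblast markers (5 of 10 tested, 1 higher, 2 lower), without Col3a1, which could not be joined, summed to 26.1 to 29.5 and 13.2 to 14.6 CPM. That difference is the one of Col1a1 (21.0 and 5.06 CPM): the other 7 joined markers summed to 6.28 to 7.62 and 7.84 to 9.38 CPM, and Col1a2 rose. No library of the Ikzf1 group reached the control range in the 3 sums over whole lists. Pigment epithelium markers (5 of 10 tested, 0 higher, 2 lower) summed to 26.7 to 28.2 and 18.0 to 21.9 CPM, and lens markers (3 of 10 tested, 0 higher, 2 lower) to 6.27 to 7.49 and 2.90 to 3.67 CPM. Both of these sums were also lower in every Ikzf1 library than in every control. The 2 lower pigment epithelium markers were Mitf (6.59 and 2.61 CPM) and Rlbp1 (15.8 and 13.2 CPM). Tyr, Dct and Pmel did not pass. Cdh5 of endothelium and Cryaa of lens had no read in any Ikzf1 library.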

How the data were processed

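Per the deposited quantification files, the authors gave estimated counts and TPM per transcript for each of the 8 RNA libraries. Their deposited gene table holds a signal per gene, the mean normalised count, with a log2 fold change and its standard error. The submitters' processing notes name Salmon, DESeq2, Bowtie2, MACS2 and deepTools, with versions not given in the sources used here. The labels describe a stranded kit.

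Transcripts were joined to genes by matching sums of neighbouring transcripts to the authors' mean normalised counts (relative tolerance 5e-09). This joined 19301 of 19529 genes with a mean of 1 or more (98.8%), and 142 protein-coding genes at that level could not be joined and were not assessed. Genes under that mean were taken as near-silent.

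Gene sums were rounded and tested with edgeR 4.0.16 (quasi-likelihood, filterByExpr, TMM, 2-sided, Benjamini-Hochberg over 15652 genes, threshold 0.05) in R 4.3.3, checked on simulated data. DESeq2 1.42.0 and other settings were alternatives. Shared replicate numbers did not pair the libraries. Members, lists and roles were chosen with earlier results of these data known. Named in full are the 20 members of highest Ikzf1 mean, the 10 of largest ratio (1 read added to the controls), list members, genes at the thresholds, members with no control read and those overlapping a higher gene, and of each list the 3 other genes of smallest p. Gene positions are those of the deposited table, and promoters those of RefSeq (GRCm38.p6). CUT&RUN peaks were not analysed here.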

Additional observations from a re-analysis of the deposited data

Results flagged for a closer look

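The 34 members named in full were examined, as 68 groups of 4 libraries, and the other members were not. In 4 of the 68 groups, 1 library had a gap to the nearest of the others above the 95% critical value of Dixon's test. The gap is taken as a share of the group's range, and chance passes that value in about 1 of 20 groups. All 4 are controls. Trhr was at 0.0467 CPM in control 2, a single read, and at 0 in the others. For Trhr the gap is the whole range by construction, so the comparison with chance does not hold for it. For the other groups that comparison is only rough, since their values rest on few reads and the rule bounded them. Fsip1 was at 0.0426 CPM in control 1, below the 0.590 to 0.701 CPM of the others. Pmch was at 0.607 CPM in control 2 and at 0.0854 to 0.147 CPM in the others. Tal1 was at 0.748 CPM in control 2 and at 0.369 to 0.426 CPM in the others.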

How the results depend on the processing

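The size of the group depended on the scale: 73 genes by the rule, 72 with TMM-scaled totals, 53 with Ikzf1 left in the totals (all 53 among the 73) and 63 on TPM (39 among the 73). Leaving out 1 library gave 71 to 81 genes, and 29 to 36 for the 28 crossing the other way (30 with TMM). Of all genes 9258 passed, against 9276 with RLE size factors, 9137 with DESeq2, 9435 without the filter, 9279 without Ikzf1 and 8671 to 9071 with 1 library left out. With the replicate number as a block 8927 passed. Same-numbered libraries did not deviate together (correlations -0.06 to -0.02), and no library matched its own number best. A gene body (mean normalised count 1 or more) within 5000 bases was found for 34 members, against 14 that overlap one. With DESeq2, 1 germ line gene in place of 2 and 2 hormone genes in place of 4 were lower, and the cause was not tested. GGGAA on the gene's strand alone was in 21 of 51 promoters (41.2%, beside 33.1% of all), and 27 members in place of 32 had 90% on 1 transcript by TPM. All 637 alternative values of the named genes kept direction and call, which for members the rule had fixed. Depth limits low values: 1 CPM is 20.3 to 27.1 reads, and 11 members have a control with no read.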
